A study of Mus musculus with 14 samples.

Results

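The genes of oxidative phosphorylation were examined by respiratory complex in RNA-seq of intestinal regulatory T cells (Tregs) that carried 1 or no intact copy of Junb. The set was defined by gene symbol alone, as the protein-coding genes named for subunits of NADH dehydrogenase (Nduf), succinate dehydrogenase (Sdh), the cytochrome bc1 complex (Uqcr and Cyc1), cytochrome c oxidase (Cox4 to Cox8) and ATP synthase (Atp5), with the protein-coding genes of the mitochondrial genome kept apart. It held 98 of the 53564 genes listed in both count tables, of which 21842 were protein-coding. By symbol 37 nuclear genes belonged to complex I, 4 to complex II, 9 to complex III, 18 to complex IV and 17 to complex V, and 13 genes were mitochondrially encoded. No measured value entered this rule, although the set was chosen with earlier results of these data known. Ndufa4 is listed with complex I by its symbol, although its protein is a subunit of complex IV, and Atp5s is named as a coupling factor and not as a core subunit.

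Oxidative phosphorylation takes place at the inner mitochondrial membrane. Complex I takes electrons from NADH and complex II from succinate, and both pass them through ubiquinone to complex III, which hands them by cytochrome c to complex IV, where oxygen is reduced. Complexes I, III and IV pump protons as they do so, and complex V lets the protons flow back to make ATP. All of these except complex II are built from subunits of both genomes, the nuclear ones being made in the cytosol and imported and the mitochondrial ones being made on mitochondrial ribosomes. Tregs are known to rely more on mitochondrial respiration than conventional effector T cells do, and JunB is a subunit of the transcription factor AP-1.

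A total of 14 libraries of 6 groups was available. PP Tregs were sorted by Foxp3-YFP from Peyer's patches (PP), the lymphoid follicles of the small intestine, of untreated male mice of about 8 to 12 weeks, with a gate narrower than all Tregs. They were collected from JunB F/+ Foxp3YFPcre mice (HET, 2 libraries) and from mice with both Junb alleles floxed (KO, 2 libraries), so that the HET controls also carried Cre and 1 floxed allele. The other 10 libraries came from mice of both sexes of 10 to 12 weeks with Foxp3ERT2cre, a Cre that acts after tamoxifen, and with Rosa26-tdTomato, which marks cells in which Cre has acted. These were JunB F/+ (iHET) or JunB F/F (iKO) and all received 3 doses of 8 mg tamoxifen in olive oil on days 0, 1 and 3 and were analysed on day 7. TCRb+CD4+Foxp3+tdTomato+ Tregs of the colonic lamina propria gave 3 iHET and 3 iKO libraries, and the CD25- fraction of such cells from PP gave 2 iHET and 2 iKO libraries. Replicate 1 of each inducible group was male and the others were female. Compared genotypes were co-housed littermates. In the Foxp3-YFP-cre line, in which Foxp3 is X-linked and only males were used, the authors met with loss of Junb in the germline. Dispase was added to the digestion of colon but not of PP.

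Values are read counts per gene, given here as CPM, the count of a gene scaled to the same total count in every library. The libraries held between 26274861 and 35508709 counts, so that a floor of 3 counts lay between 0.0845 and 0.114 CPM, for counting error only. Junb read 4741 and 5316 CPM in HET against 605 and 560 in KO PP Tregs, 5530 and 4169 in iHET against 888 and 909 in iKO CD25- PP Tregs, and between 6843 and 8444 in iHET against 990 to 1025 in iKO colonic Tregs, as labelled. Foxp3, which defines Tregs, was between 65.1 and 122 CPM in PP and between 78.7 and 147 CPM in colonic libraries. The 18 markers of intestinal epithelium summed to between 65.7 and 2298 CPM, and none of them was at 0 in all libraries. Libraries were sequenced on different instruments in the Foxp3-YFP-cre and the inducible experiment, so levels of these 2 experiments are given side by side and were not tested against each other.

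To compare levels between genes, counts were expressed as TPM, a share of all transcripts that divides by the length of a gene's exons. Of the 98 genes, 34 of 37 in complex I, 4 of 4 in complex II, 9 of 9 in complex III, 11 of 18 in complex IV, 14 of 17 in complex V and 7 of 13 of the mitochondrially encoded genes averaged at least 10 TPM over the 14 libraries. The median level per gene was 78.1 TPM in complex I, 223 in complex II, 158 in complex III, 45.5 in complex IV, 58.0 in complex V and 471 for the mitochondrially encoded genes. Complex V held the nuclear gene with the highest mean, Atp5a1, which encodes the alpha subunit of the catalytic head, at 908 TPM (776 to 1080), followed by Atp5b, which encodes the catalytic beta subunit, at 875 TPM (693 to 1114). The ranges of these 2 overlapped. Sdha, the flavoprotein that oxidizes succinate, led complex II at 315 TPM, with Sdhc, 1 of its membrane anchors, lowest at 90.8. In complex III, Uqcr10, a small accessory subunit, averaged 275 TPM and Uqcrq, another, 81.3. The highest means in complexes I and IV were those of Ndufa2, an accessory subunit, at 261 TPM and of Cox6a1 at 575 TPM. The rank of Ndufa2 depended on the length used, since with the longest coding transcript it was at 193 TPM and Ndufa7 at 222.

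**Figure D1:**
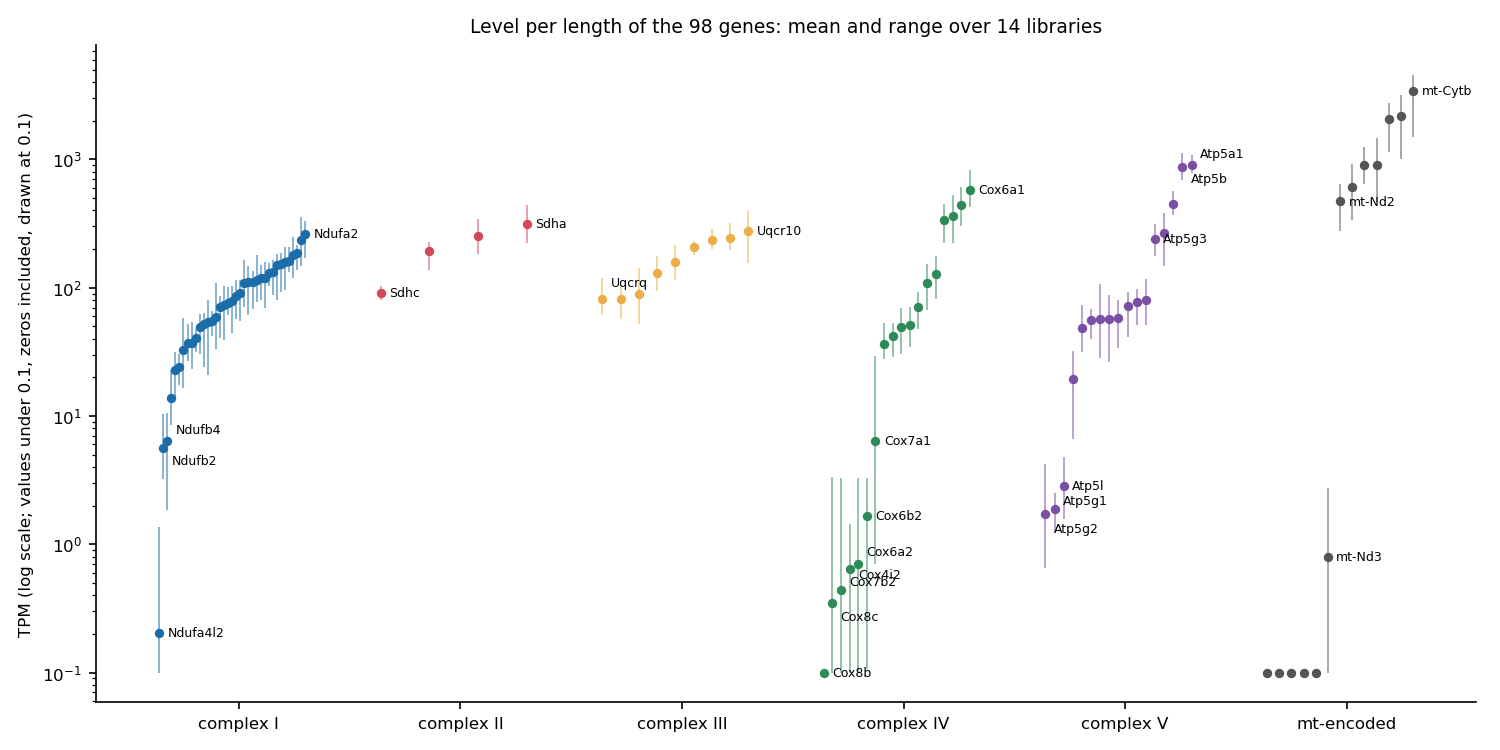
Mean level per length (TPM, log axis) of each of the 98 genes over 14 libraries, by complex, with the range over libraries as a bar. Values under 0.1, zeros included, are drawn at 0.1. Complexes II and III lie above 10 TPM throughout, while complex I, complex IV, complex V and the mitochondrially encoded genes each hold genes under 10 TPM.

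The low genes of complex IV were alternative isoforms. Several subunits of cytochrome c oxidase have a common isoform and others that are known from muscle, lung or testis. In each such set except that of subunit 7a, 1 gene carried nearly all of the signal in these Tregs. Cox4i1, which encodes the common form of subunit 4, averaged 338 TPM (222 to 448) against 0.644 TPM (0 to 1.43) for Cox4i2. Cox6a1 averaged 575 TPM against 0.697 for Cox6a2, the form of heart and skeletal muscle. Cox6b1 averaged 359 TPM and Cox6b2, known from testis, 1.67. In none of these 3 pairs did the ranges over libraries overlap. For subunit 7a, Cox7a2 averaged 128 TPM, the related Cox7a2l, which takes part in joining complexes III and IV into supercomplexes, 70.1, and the muscle form Cox7a1 6.42 (0.703 to 29.3). Cox7b averaged 109 TPM and Cox7b2 0.439. For subunit 8, Cox8a averaged 440 TPM and Cox8c 0.350, while Cox8b had no count in any of the 14 libraries. Ndufa4 averaged 119 TPM and Ndufa4l2, a paralog known to be induced in hypoxia, 0.204, with no count in 9 libraries.

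The 3 genes for the c subunit, which forms the proton-carrying ring of complex V and is the same protein after import, differed likewise, with Atp5g3 at 241 TPM (176 to 315), Atp5g1 at 1.88 (1.22 to 2.49) and Atp5g2 at 1.71 (0.657 to 4.21). Here the way of counting has to be kept in view, because only reads that aligned to a single place were counted and mouse subunit genes have many processed pseudogenes. Of the 50-base windows in the coding transcripts of Atp5g2, 38.4% also occurred in a transcript of another gene, and this held for 11.1% of those of Atp5g1 and for none of those of Atp5g3. The share was 84.9% for Atp5l (2.84 TPM), a subunit of complex V, 37.0% for Ndufb4 (6.44 TPM) and 21.7% for Ndufs5 (13.7 TPM), both accessory subunits of complex I. The median level was 115 TPM over the 42 nuclear genes with under 1% of such windows and 58.7 TPM over the 24 with at least 10%. These levels are thus uncertain, and more so for genes with shared windows. They also depend on the length used, since Atp5l has 6443 exonic bases but a longest coding transcript of 544 bases.

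The mitochondrial genome encodes 7 subunits of complex I, 1 of complex III, 3 of complex IV and 2 of complex V, and here the counts fell into separate classes. mt-Cytb, the only mitochondrial subunit of complex III, had the highest mean of all members at 3420 TPM (1491 to 4516), followed by mt-Co1, the catalytic subunit of complex IV, at 2164 TPM, and the complex I subunits mt-Nd1 at 2074, mt-Nd6 at 905, mt-Nd5 at 899, mt-Nd4 at 613 and mt-Nd2 at 471 TPM. In contrast, mt-Co2, mt-Co3, mt-Atp6, mt-Atp8 and mt-Nd4l had 0 counts in all 14 libraries, and mt-Nd3 had between 0 and 10. The 5 genes at 0 encode core subunits of complexes I, IV and V, which cells that respire make, so that their zeros were examined further and are not read as levels.

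A stretch of nuclear DNA in GRCm38 at chr1:24611535-24616197 is annotated with 7 pseudogenes that match this part of the mitochondrial genome on the minus strand. Over 681 aligned bases, mt-Co2 and the pseudogene Gm28661 had 0 mismatches, as did mt-Atp6 and Gm10925 over 678 bases, mt-Co3 and Gm28437 over 783 bases and mt-Nd4l and Gm10222 over 294 bases. mt-Nd3 and Gm28438 had 1 mismatch in 345 bases, and Gm28438 had between 0 and 32 counts. The pseudogenes without a mismatch had 0 counts in all libraries as well. The first 60 bases of mt-Co2 and Gm28661 are shown because they are the same on both chromosomes, and those of mt-Cytb because none of its windows occurred elsewhere (GENCODE transcripts, GRCm38, 5′ to 3′; mt-Co2 from chrM:7013-7072, Gm28661 from chr1:24615506-24615565 on the minus strand, mt-Cytb from chrM:14145-14204).
mt-Co2: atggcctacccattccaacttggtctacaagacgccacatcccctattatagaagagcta
Gm28661: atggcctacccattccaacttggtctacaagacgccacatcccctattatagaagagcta
mt-Cytb: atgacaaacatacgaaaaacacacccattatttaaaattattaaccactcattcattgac

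Parts of the counted mitochondrial genes were shared too. The first 876 bases of mt-Nd4 matched Gm28439 without a mismatch, so that 62.2% of its windows occurred elsewhere, and in mt-Co1, which has copies on chromosomes 1 and 2, 51.1% did. The other 5 counted genes shared at most 8.19% of their windows. mt-Atp8, which shared no window with an annotated transcript but lies between annotated pseudogenes of that stretch, was not compared with it. mt-Nd5 and mt-Nd6 lie on opposite strands and overlap by 14 bases, and because counting ignored strand, reads of mt-Nd6 and of the transcript opposite to it cannot be told apart. Sums of mitochondrially encoded genes below therefore rest on 7 genes and on the unshared part of mt-Nd4 and mt-Co1.

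**Figure D2:**
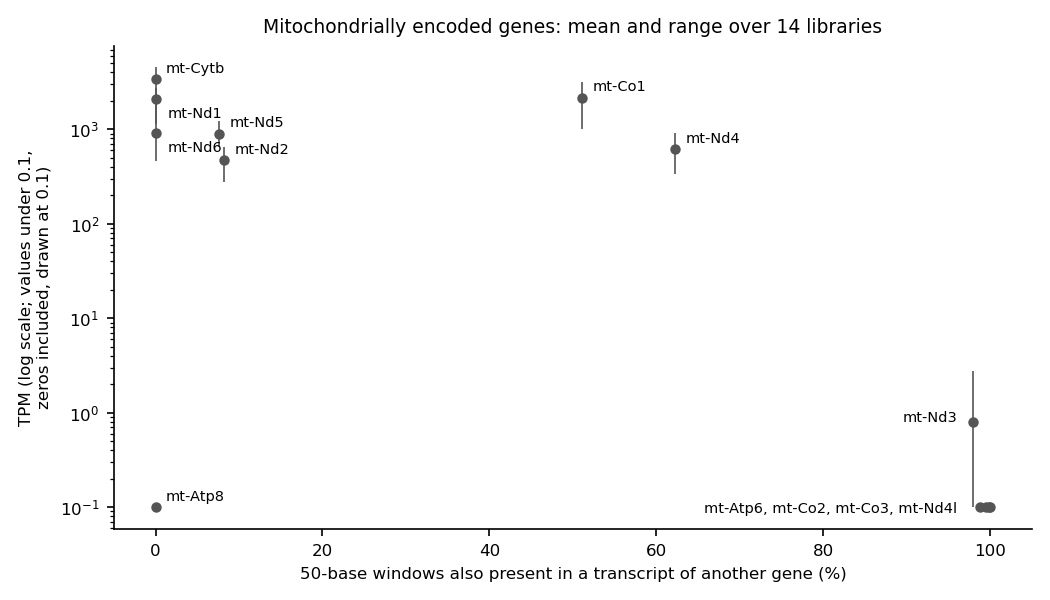
Level per length (TPM, log axis, mean of 14 libraries; values under 0.1 drawn at 0.1) of the 13 mitochondrially encoded genes against the percentage of their 50-base windows that also occur in a transcript of another gene, with the range over libraries as a bar. mt-Cytb lies at 0% and 3420 TPM, mt-Co2, mt-Co3, mt-Atp6 and mt-Nd4l have nearly all windows shared and no counts, and mt-Atp8 has no counts at 0%.

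Because nuclear genes of the respiratory chain are known targets of a few transcription factors, the window from 250 bases before to 50 after the RefSeq start of each gene (GRCm38.p6) was searched on both strands. A window was found for 68 of the 85 nuclear members. The NRF1 motif, which has 1 free base and whose letters stand in capitals further on, was present in 16 of 68 windows (23.5%). It was present in 6.85% of all 16522 promoter windows. The YY1 motif AAGATGGC was present in 9 of 68 (13.2%), against 3.29%. The ERR motif TCAAGGTCA was found in 2 (2.94%, against 0.339% of all), the CRE motif TGACGTCA in 4 (5.88%, against 2.43%) and the ETS motif CCGGAAGT in 5 (7.35%, against 5.52%). The AP-1 motif TGANTCA, the kind of site that JunB binds with a partner, was found in 6 (8.82%), against 7.1% of all windows. Complex V had the NRF1 motif in 5 of 15 windows and complex I in 7 of 32, and complex IV had it in 1 of 13. None of the searched motifs contains another of them. A match is a run of letters and does not show binding.

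The stretches with an NRF1 motif outside all annotated exons are shown for 1 gene of each of complexes I, II, IV and V, since this was the motif found most often (RefSeq, GRCm38.p6, 5′ to 3′ on the gene's strand, motif in capitals; Ndufa11 from chr17:56717687-56717726, Sdha from chr13:74350281-74350308, Cox6a1 from chr5:115349051-115349129 with 2 motifs, Atp5h from chr11:115420036-115420075).
Ndufa11: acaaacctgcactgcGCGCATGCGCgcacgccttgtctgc
Sdha: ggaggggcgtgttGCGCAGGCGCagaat
Cox6a1: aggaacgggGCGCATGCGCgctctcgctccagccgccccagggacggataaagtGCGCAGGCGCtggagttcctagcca
Atp5h: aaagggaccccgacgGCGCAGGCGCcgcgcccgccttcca

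The 3 AP-1 motifs that lay outside exons are shown in the same way, because JunB is the deleted factor (Ndufa9 from chr6:126849370-126849394, Cox7c from chr13:86046952-86046988, Atp5c1 from chr2:10080745-10080760). The other 3 were in Ndufa13, Uqcrh and Atp5g1. No tested member, these 6 genes included, passed the main test between genotypes in the comparisons below. That result therefore does not set genes with the motif apart from the other members.
Ndufa9: cctTGAGTCAgtccttggttaactc
Cox7c: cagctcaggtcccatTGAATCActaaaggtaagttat
Atp5c1: agccTGAGTCActtac

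The share of each library that the members took up was given by the sum of their CPM, over library totals. Nuclear members summed to 7175 and 6875 CPM in PP Tregs of HET mice and to 7042 and 6829 CPM in those of KO mice, so that the genotypes overlapped. In CD25- PP Tregs they summed to 6614 and 6677 CPM in iHET and to 6258 and 6219 CPM in iKO, with both iKO libraries below both iHET libraries. In colonic Tregs they summed to 5080, 6249 and 7796 CPM in iHET replicates 1, 2 and 3 and to 6927, 6731 and 8171 CPM in iKO replicates 1, 2 and 3. The 3 colonic iHET libraries thus spanned a wider range than all libraries of PP together, and the genotypes overlapped. Complex V made up between 40.9% and 46.1% of the nuclear sum, complex I between 21.4% and 25.4%, complex III between 11.3% and 13.8%, complex II between 8.74% and 12.0% and complex IV between 8.38% and 12.2%, so that the order of the larger 2 was the same in every library.

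The mitochondrially encoded genes summed to 3484 and 4127 CPM in the HET libraries of PP Tregs and to 3198 and 3387 CPM in those of KO. In CD25- PP Tregs they summed to 4487 and 4895 CPM in iHET and 4223 and 4930 CPM in iKO, and in colonic Tregs to 1951, 3162 and 4211 CPM in iHET and 3986, 3494 and 5036 CPM in iKO. Colonic iHET replicate 1 held the lowest value and colonic iKO replicate 3 the highest of all 14 libraries. The ratio of the mitochondrially encoded to the nuclear sum lay between 0.675 and 0.793 in the 4 CD25- PP libraries and between 0.384 and 0.616 in the 6 colonic libraries, without overlap, and between 0.454 and 0.600 in the 4 PP libraries of the other experiment. In RNA of sorted populations, fewer cells of a type and less RNA per cell cannot be told apart.

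**Figure D3:**
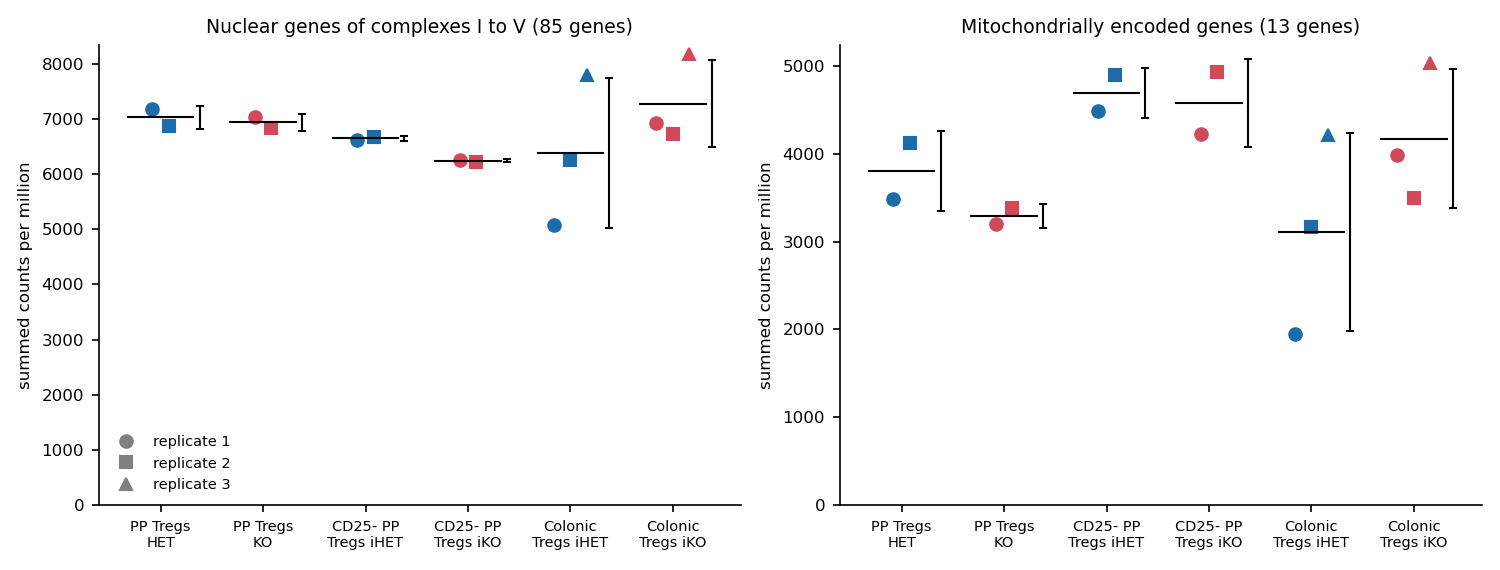
Summed CPM (linear axes from 0, not TMM-scaled) of the nuclear genes of complexes I to V (left) and of the mitochondrially encoded genes (right) in each of the 14 libraries; markers are replicates, horizontal lines group means and bars SD. Colonic iHET replicate 1 is the lowest of all libraries in both panels (5080 and 1951 CPM) and colonic iKO replicate 3 the highest (8171 and 5036 CPM).

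The first question was whether these genes differed in PP Tregs of Foxp3-YFP-cre mice lacking Junb. They differed little. The median log2 fold change (KO over HET) was 0.03 over the 76 tested nuclear members and -0.13 over the 7 tested mitochondrially encoded genes, against 0.00 over all 12224 genes tested. None of the 83 tested members was called by edgeR's quasi-likelihood test at a false discovery rate (FDR) of 0.05, in a comparison in which 3.35% of all genes were called. Estimates were positive for 45 members, against 50.7% of all genes. At an unadjusted p under 0.05 there was 1 member, against 14% of all genes. DESeq2 called 1 member and 696 genes in all, and the exact test no member and 691 genes. The fit with the replicate number as a block called 1 member and 1015 genes in all. The 95% interval lay within a 2-fold difference for 82 of the 83 members and within 1.5-fold for 77. In 16 members both KO libraries lay above both HET libraries, and in 9 both lay below, against 21.8% of all genes in each direction. Of the 16, 10 belonged to complex I, and 2 of the 9 were mt-Co1 and mt-Cytb.

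By complex, the medians were 0.05 for complex I (23 of 36 positive), 0.01 for complex II (2 of 4), -0.01 for complex III (4 of 9), 0.07 for complex IV (8 of 11) and 0.00 for complex V (8 of 16). All 7 mitochondrially encoded genes had a negative estimate, between -0.27 and -0.02. HET replicate 2 was highest in all 7, and the median of these genes was 0.12 without that library, -0.33 without HET replicate 1, -0.03 without KO replicate 1 and -0.23 without KO replicate 2. The member with the lowest p was mt-Co1, at 885 and 955 CPM in HET mice against 787 and 740 CPM (log2 fold change -0.27, SE 0.09, 95% interval -0.47 to -0.06, FDR = 0.193). Its groups did not overlap. DESeq2 gave it an FDR of 0.0377. In complex I, Ndufa6, an accessory subunit of the matrix arm, read 30.5 and 34.6 CPM in HET mice against 39.7 and 37.9 CPM (0.25, interval -0.01 to 0.52, FDR = 0.385). These did not overlap either, and the interval included 0.

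The lowest p-values of the other complexes in PP Tregs belonged to smaller differences. Atp5g3, the c subunit gene, had 162 and 157 CPM in HET mice against 151 and 147 CPM (-0.10, interval -0.27 to 0.07). Cox6a1 had 88.3 and 92.7 against 102 and 92.6 CPM (0.11, -0.10 to 0.31), and Uqcrb, a subunit of complex III, 17.5 and 18.2 against 19.9 and 19.9 CPM (0.15, -0.15 to 0.46). Sdhd, the other membrane anchor of complex II, had 116 and 105 against 112 and 97.9 CPM (-0.08, -0.30 to 0.15). The FDR of these 4 lay between 0.665 and 0.833. Intestinal epithelial markers summed to 327 and 200 CPM in HET mice against 77.5 and 65.7 CPM, and 14 of the 17 tested were called lower in KO. The part of this in the members' values was not tested.

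The same question was asked 7 days after tamoxifen in CD25- PP Tregs. There most estimates of the members were slightly negative (iKO over iHET), with a median log2 fold change of -0.10 over the 78 tested nuclear members and -0.03 over the 7 mitochondrially encoded genes, against 0.00 over 17079 genes. Estimates were positive for 20 of the 85 members, 17 of them nuclear, against 49.6% of all genes. None of the 85 tested members was called by edgeR's quasi-likelihood test, and 0% of all genes were (DESeq2 called 35 genes and the exact test 45, none of them members). Junb, the deleted gene, was itself not called by the quasi-likelihood test (log2 fold change -2.44, FDR = 0.0941). The lack of called members is therefore not read as a lack of differences. At an unadjusted p under 0.05 there were 3 members, all lower in iKO, against 3.62% of all genes in either direction and 1.9% on the lower side. Both iKO libraries lay below both iHET libraries in 21 members (15.6% of all genes) and above them in 6 (16.5% of all genes). The 95% interval was within 2-fold for 78 of 85 members and within 1.5-fold for 59, so that differences of the size of the median could not be told from 0.

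The medians in CD25- PP Tregs were -0.10 in complex I (6 of 36 positive), -0.06 in complex II (1 of 4), -0.05 in complex III (1 of 9), -0.12 in complex IV (2 of 12) and -0.05 in complex V (7 of 17). Between same-numbered libraries, nuclear members were higher in iKO in 17 of 78 for replicate 1 and 37 of 78 for replicate 2, against 51.2% and 50.6% of all genes. Without iHET replicate 1, which was highest in 42 of the 78 nuclear members, the nuclear median was -0.03, and without iKO replicate 1 the mitochondrially encoded median was 0.03. The 3 members with a p under 0.05 were all accessory subunits of complex I. Ndufb6 had 11.1 and 9.83 CPM in iHET and 7.09 and 6.57 CPM in iKO (-0.62, SE 0.22, 95% interval -1.17 to -0.08, FDR = 0.999). It shares 257 exonic bases with Smim27, and 31.6% of its windows occurred elsewhere, which makes its counts uncertain. Ndufa3 had 45.9 and 41.6 against 33.4 and 33.3 CPM (-0.40, -0.76 to -0.04), and Ndufa8 47.5 and 47.2 against 36.2 and 37.4 CPM (-0.37, -0.71 to -0.03). Both groups were apart in each of the 3.

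In the other complexes the genes with the lowest p in CD25- PP Tregs had intervals that included 0. Atp5mpl, a small membrane subunit of complex V, read 20.1 and 19.4 CPM in iHET and 16.7 and 15.1 CPM in iKO (-0.32, interval -0.74 to 0.10), and Cox5a, a nuclear subunit of complex IV, 27.2 and 21 against 19.0 and 20.2 CPM (-0.31, -0.77 to 0.16). The iKO libraries lay below the iHET libraries in both. Uqcrh, the hinge protein of complex III, read 54.1 and 44.1 against 45.6 and 39.0 CPM (-0.22, -0.64 to 0.19), Sdhd 75.6 and 78.3 against 66.5 and 72.8 CPM (-0.15, -0.46 to 0.16) and mt-Nd6 190 and 222 against 138 and 200 CPM (-0.30, -0.78 to 0.19). In Uqcrh and mt-Nd6 the groups overlapped. Among the mitochondrially encoded genes the estimates ran from -0.30 for mt-Nd5, which had the largest, to 0.12 for mt-Co1. Epithelial markers summed to 689 and 398 CPM in iHET and to 250 and 256 CPM in iKO, and their part in these values was not tested.

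In colonic Tregs, the estimates of the members were mostly positive (iKO over iHET). The fit held the replicate number as a term, because the study blocked by cage with 1 mouse of each genotype per cage. That the number marks the cage is inferred, as no label names a cage. The median log2 fold change was 0.22 over the 77 tested nuclear members, of which 72 were positive, and 0.39 over the 7 mitochondrially encoded genes, all positive, against 0.00 over 16313 genes, of which 50.8% were positive. None of the 84 tested members was called by edgeR's quasi-likelihood test (0.00613% of all genes, which was Junb alone), nor by DESeq2 (50 genes in all) or the likelihood ratio test (25 genes in all). An unadjusted p under 0.05 was found for 5 members, 4 of them higher in iKO, against 3.85% of all genes, and 1.55% on the higher side. The groups did not overlap in 1 member on the higher side, Ndufv1 (3.86% of all genes), and in 1 on the lower side, Atp5l (4.49% of all genes). The 95% interval was within 2-fold for 76 of the 84 members, but within 1.5-fold for only 26.

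The size of both medians, and the direction of the nuclear one, depended on the libraries of replicate 1, which were those of males. Colonic iHET replicate 1 was the lowest of the 6 libraries in 69 of 77 nuclear members and in 7 of 7 mitochondrially encoded genes, where it was lowest for 24.9% of all genes. Its nuclear members deviated from their mean over the 6 libraries by a median of -0.56 on the log2 scale. Colonic iHET replicate 3 was the highest in 41 of 77 nuclear members and iKO replicate 3 in 35. Without iHET replicate 1, the nuclear median was 0.04 with the replicate term and -0.01 without it, and the mitochondrially encoded median 0.16. Without iKO replicate 1 they were 0.05 and 0.16. With the replicate term, leaving out either library of a number leaves its partner without a counterpart. Both such fits then rest on the same remaining pairs and are not separate checks. Without either library of replicate 3 the nuclear median was 0.35, and without iHET replicate 3 and the replicate term 0.46. Without iHET replicate 2 the mitochondrially encoded median was 0.58, and without iKO replicate 2 it was 0.61. Between same-numbered libraries, nuclear members were higher in iKO in 71 of 77 for replicate 1, 63 of 77 for replicate 2 and 35 of 77 for replicate 3 (51.0%, 49.3% and 49.3% of all genes), so that their direction did not hold in the third pair. The mitochondrially encoded genes were higher in iKO in 7, 4 and 7 of 7.

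**Figure D4:**
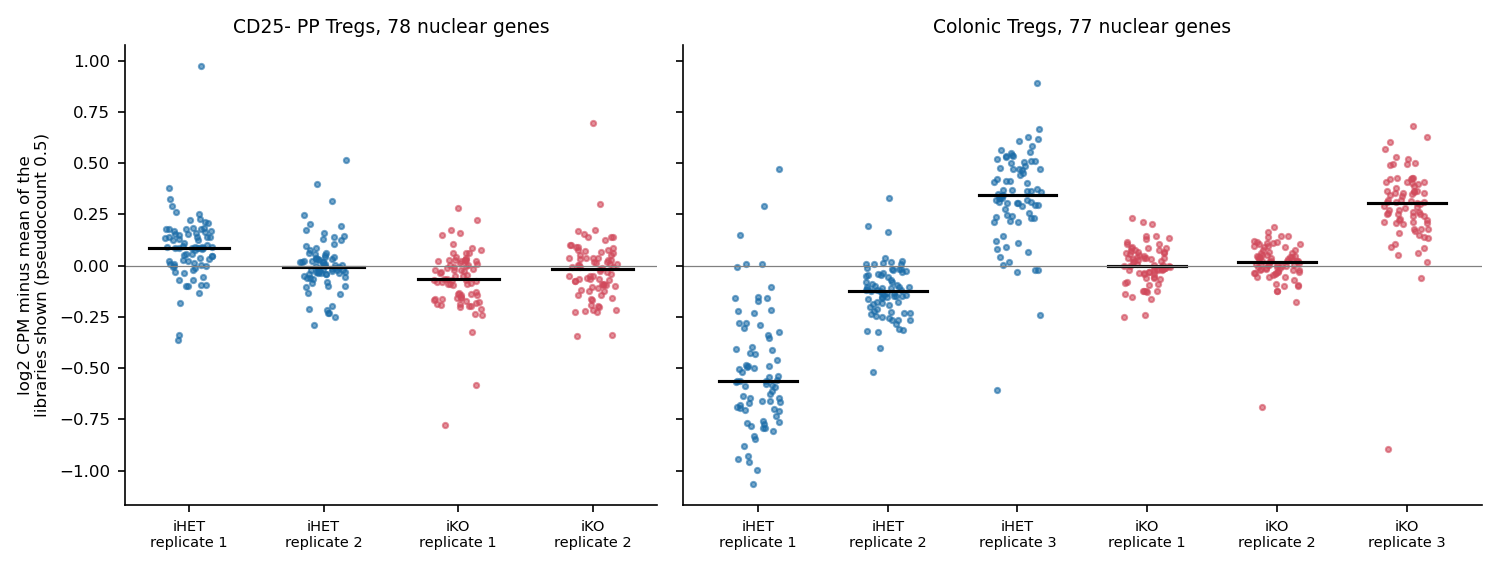
Deviation of each nuclear member's log2 CPM (pseudocount 0.5) from its mean over the libraries of the same panel, for CD25- PP Tregs (left) and colonic Tregs (right); points are genes and lines medians. Most genes of colonic iHET replicate 1 lie below 0 (median -0.56) and most of colonic iHET replicate 3 and iKO replicate 3 above it (0.34 and 0.31).

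Genes of ribosomes were low in colonic iHET replicate 1 as well. In that library mitochondrial ribosomal protein genes summed to 1434 CPM, against 1637 to 2137 CPM in the other 5, and cytosolic ones to 2997 CPM, against 3910 to 5580 CPM. Members with under 1 kb of exon deviated by a median of -0.71 in it and other genes of that length by -0.20, whereas members of 3 kb or more deviated by -0.29 and other genes by 0.06. Proliferation markers summed to 590 CPM in iHET replicate 3 and to between 171 and 292 CPM in the other 5, and epithelial markers to 503, 1224 and 353 CPM in iHET and to 234, 1041 and 2298 CPM in iKO. The part of sex, length, ribosomal genes, proliferation or epithelium in the members' values was not tested.

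Complex medians in colonic Tregs were 0.22 for complex I (35 of 36 positive), 0.13 for complex II (4 of 4), 0.24 for complex III (8 of 9), 0.19 for complex IV (11 of 11) and 0.19 for complex V (14 of 17). Ndufa6 had the lowest p, with 21.8, 33.1 and 48.6 CPM in iHET and 42.0, 42.7 and 61.4 CPM in iKO (0.54, SE 0.17, 95% interval 0.11 to 0.97, FDR = 0.950). Each iKO library lay above the iHET library of the same number, although the groups overlapped. mt-Cytb had 526, 875 and 1174 CPM in iHET and 1102, 1025 and 1435 CPM in iKO (0.52, 0.04 to 1.01), and mt-Co1, with the largest estimate of the mitochondrially encoded genes, 482, 850 and 1443 against 1132, 1058 and 1625 CPM (0.57, SE 0.23). In both, the difference was largest for replicate 1. Cox6b1, which bridges the monomers of complex IV, had 49.0, 72.9 and 110 against 79.8, 86.3 and 124 CPM (0.36, 0.01 to 0.72).

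In the other named genes of colonic Tregs each iKO library lay above the iHET library of the same number, except in Atp5l. Uqcrc2, a core protein of complex III, had 90.8, 108 and 124 CPM in iHET and 118, 118 and 144 CPM in iKO (0.24, -0.02 to 0.49), and Sdhd 74.0, 98.6 and 108 against 97.6, 109 and 118 CPM (0.21, -0.05 to 0.48). Ndufv1, which binds NADH and the flavin of complex I, had 95.2, 96.9 and 104 against 114, 109 and 119 CPM (0.20, -0.03 to 0.44) and was the member whose iKO libraries all exceeded the iHET libraries. Atp5mpl had 11.9, 16.4 and 24.0 against 17.5, 21.3 and 29.6 CPM (0.41, 0.02 to 0.80). Atp5l had 9.49, 8.57 and 8.01 against 6.60, 6.12 and 3.39 CPM (-0.75, -1.43 to -0.07). The FDR of all of these was 0.950, and 84.9% of the coding windows of Atp5l were shared, which makes its counts uncertain.

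**Figure D5:**
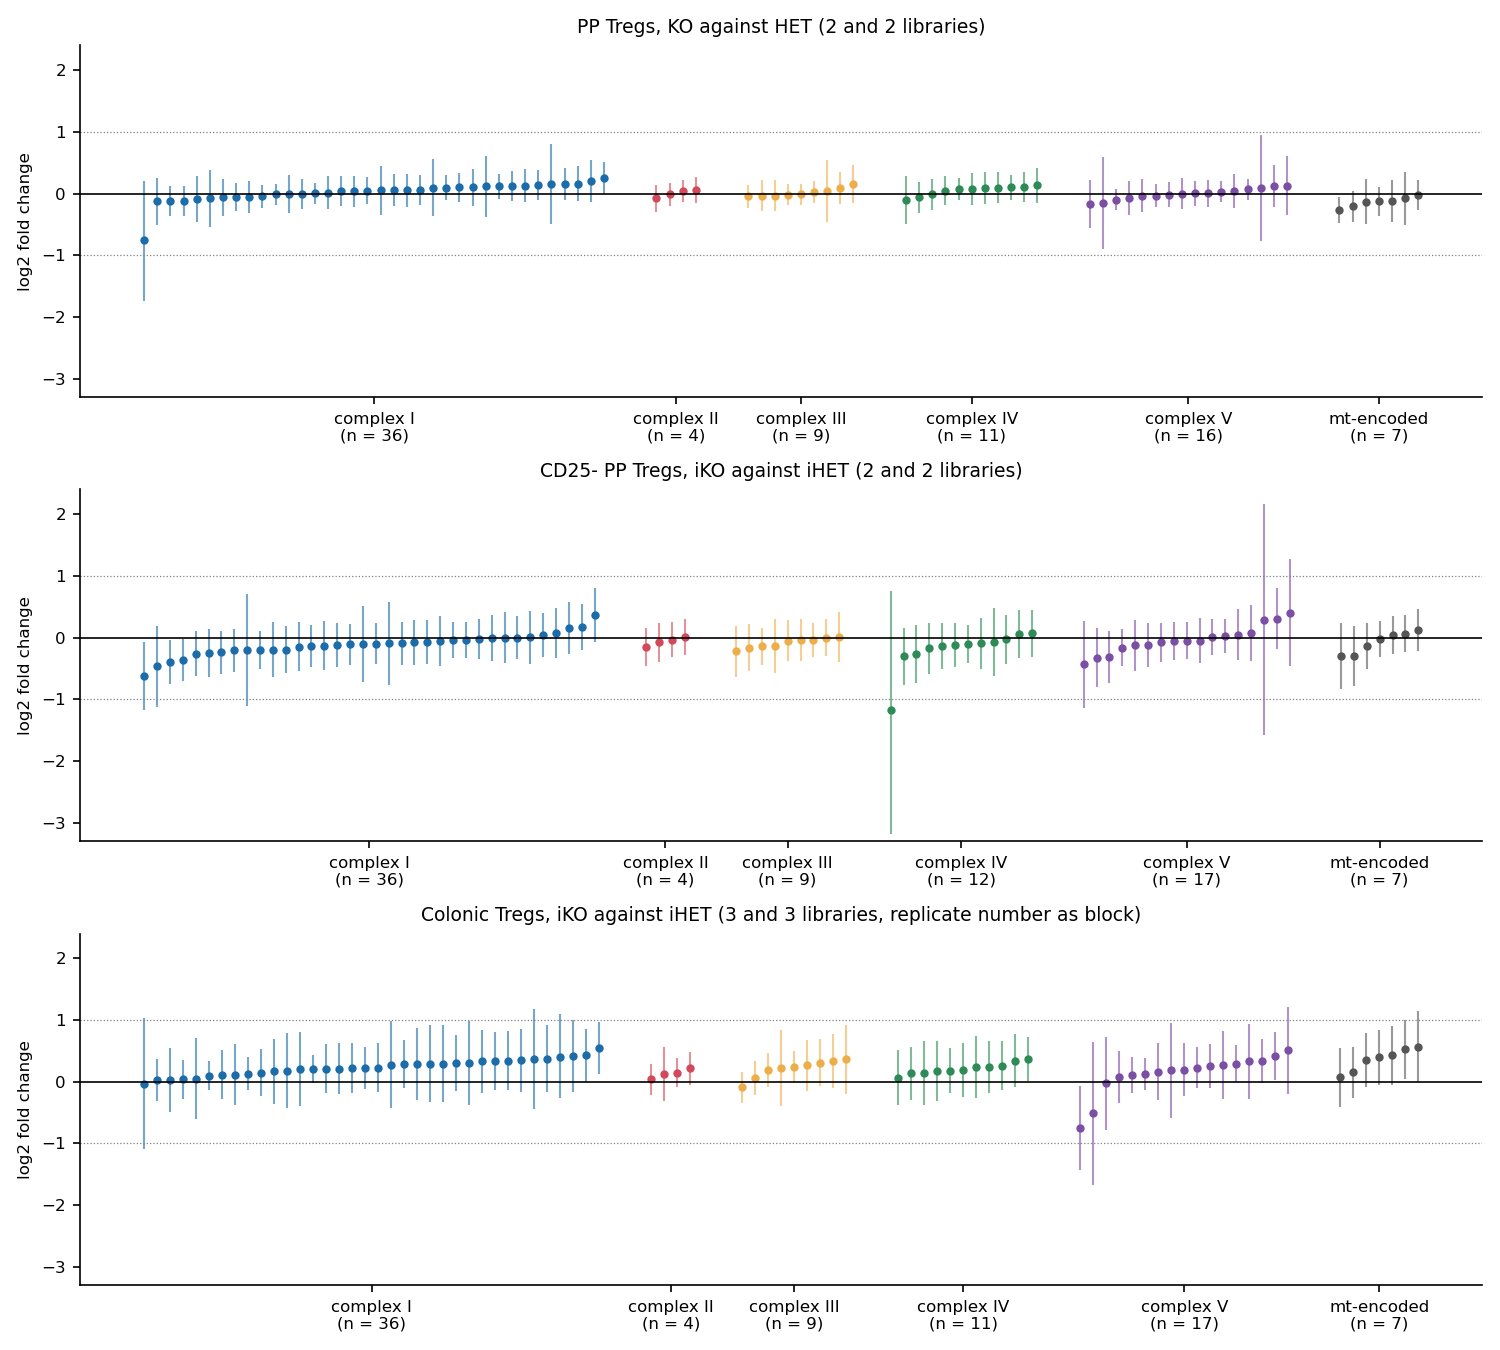
Fitted log2 fold change of each tested member by complex, in PP Tregs (KO over HET), CD25- PP Tregs and colonic Tregs (iKO over iHET); points are genes in order of their estimate, bars 95% intervals and dotted lines 2-fold differences. Points lie around 0 in PP Tregs, mostly below 0 in CD25- PP Tregs (nuclear median -0.10) and mostly above 0 in colonic Tregs (nuclear median 0.22), and none of the members was called.

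The 10 libraries of the inducible line also allowed colonic to be set against CD25- PP Tregs. Organ, the CD25 gate and dispase digestion differ together here and cannot be told apart, and the comparisons in iHET and iKO and their difference use the libraries already described. In iHET mice, the median log2 fold change (colonic over CD25- PP) was 0.03 over the 79 tested nuclear members and -0.44 over the 7 mitochondrially encoded genes, all negative, against -0.01 over 18626 genes. None of the 86 tested members was called by edgeR's quasi-likelihood test or DESeq2, while 6.45% of all genes were by the former and 2504 genes by the latter. With the replicate number as a block, 900 genes were called, among them mt-Nd4 (FDR = 0.0372) and mt-Cytb (FDR = 0.0462). The medians were then -0.20 for nuclear and -0.61 for mitochondrially encoded genes. Estimates were positive for 49 members, against 49.1% of all genes. There were 7 members with an unadjusted p under 0.05, against 22.3% of all genes, and 2 of them were higher in colon, against 12.3%. The groups did not overlap in 5 members that were higher in colon (18.8% of all genes) and in 9 that were lower (19.9% of all genes). Intervals were within 2-fold for 67 of the 86. The nuclear median was 0.23 without colonic iHET replicate 1 and -0.26 without colonic iHET replicate 3, and the mitochondrially encoded median -0.26 and -0.66, so that the nuclear direction depended on single libraries.

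In iHET mice the estimates of the mitochondrially encoded genes ran from -0.65 for mt-Nd4 to -0.21 for mt-Co1. mt-Nd4 had 144, 236 and 304 CPM in colonic and 344 and 371 CPM in CD25- PP Tregs (-0.65, SE 0.27, 95% interval -1.24 to -0.06, FDR = 0.187). mt-Nd2 had 89.3, 152 and 147 against 188 and 194 CPM (-0.56, -1.02 to -0.10, FDR = 0.147) and mt-Cytb 526, 875 and 1174 against 1297 and 1384 CPM (-0.64, -1.25 to -0.03). In these 3 genes and in mt-Nd5 every colonic iHET library lay below both CD25- PP iHET libraries. Of nuclear genes, Ndufb2, an accessory subunit of complex I, had 7.65, 5.92 and 10.6 against 10.9 and 16.9 CPM (-0.79, -1.45 to -0.12), with exons shared with Braf, and Atp5s 8.46, 8.75 and 4.81 against 12.4 and 11.6 CPM (-0.71, -1.31 to -0.11). Sdha had 334, 332 and 328 against 395 and 367 CPM (-0.20, -0.44 to 0.04).

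The genes of lowest p in complexes III and IV had positive estimates in iHET mice. Uqcrc1, the other core protein of complex III, had 295, 272 and 345 CPM in colonic and 253 and 232 CPM in CD25- PP Tregs (0.33, interval 0.04 to 0.61, FDR = 0.174). The groups did not overlap. Cox5a had 19.7, 30.1 and 45.9 against 27.2 and 21 CPM (0.40, -0.28 to 1.08, FDR = 0.486), with overlap.

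In iKO mice most estimates of the nuclear members were positive (colonic over CD25- PP). The nuclear median was 0.31, with 68 of 79 positive (51.2% of all genes), and that of the mitochondrially encoded genes -0.02, against 0.01 over all genes. None of the 86 members was called by edgeR's quasi-likelihood test, against 4.07% of all genes. DESeq2 called 3 members, and 2233 of all 18626 genes. An unadjusted p under 0.05 was found for 12 members, 11 of them higher in colon, against 20.9% of all genes and 11.4% on the higher side. All 3 colonic iKO libraries lay above both CD25- PP iKO libraries in 48 members (23% of all genes) and below them in 3 (21% of all genes), which were Sdha, Cox5b and Atp5s. The 48 held 18 of 36 tested genes of complex I, 3 of 4 of complex II, 9 of 9 of complex III, 8 of 13 of complex IV, 10 of 17 of complex V and none of the mitochondrially encoded genes. The medians were 0.23, 0.34, 0.41, 0.46 and 0.23 for complexes I to V. The nuclear median ranged from 0.18 to 0.35 with 1 library left out, the lower value without colonic iKO replicate 3, the mitochondrially encoded median from -0.26 (without CD25- PP iKO replicate 1) to 0.09 (without colonic iKO replicate 2), and intervals were within 2-fold for 54 of 86 members. With the replicate number as a block the medians were 0.15 and -0.17. Other lists were apart between the same libraries, with cytosolic ribosomal protein genes at 4697 to 5580 CPM in colonic against 4255 to 4400 CPM in CD25- PP Tregs, proliferation markers at 201 to 292 against 138 to 148, myeloid markers at 110 to 273 against 82.4 to 88.9 and markers of cytotoxic lymphocytes at 39.1 to 56.0 against 97.4 to 132 CPM. Assembly factors of the respiratory chain were apart too, and lower in colonic Tregs, at 958 to 1096 against 1145 to 1180 CPM. The part of these lists in the members' values was not tested.

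Sdhd had the lowest p in iKO mice, with 97.6, 109 and 118 CPM in colonic and 66.5 and 72.8 CPM in CD25- PP Tregs (0.63, SE 0.17, 95% interval 0.26 to 1.01, FDR = 0.0671). Its colonic libraries all lay above the PP libraries. Atp5b had 1189, 1153 and 1290 against 941 and 876 CPM (0.41, 0.11 to 0.72) and Uqcrc1 276, 274 and 304 against 220 and 220 CPM (0.37, 0.08 to 0.66), also without overlap. Cox5a had 30.8, 30.6 and 39.0 against 19.0 and 20.2 CPM (0.77, 0.08 to 1.46), and Ndufb6 9.97, 10.2 and 13.5 against 7.09 and 6.57 CPM (0.72, 0.18 to 1.26). Atp5s lay on the other side, at 7.79, 7.40 and 9.18 against 13.3 and 16.6 CPM (-0.88, -1.48 to -0.28). The FDR of these 5 was between 0.0984 and 0.190. Of the mitochondrially encoded genes, mt-Nd4 had the largest estimate, with 255, 251 and 335 against 290 and 365 CPM (-0.22, -0.82 to 0.37), and mt-Nd2 the lowest p, with 161, 151 and 189 against 180 and 196 CPM (-0.18, -0.64 to 0.29).

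Whether iKO and iHET differed by another amount in colonic than in CD25- PP Tregs was tested as an interaction. Estimates were positive for 69 of 79 nuclear members (median 0.25) and 7 of 7 mitochondrially encoded genes (median 0.38), against 0.00 over all genes, of which 50% were positive. By edgeR's quasi-likelihood test 0 of 86 members and 0% of all genes were called. DESeq2 called 0 members and 2 genes, and an unadjusted p under 0.05 was found for 1 member and 3.34% of all genes. The interval was within 2-fold for only 32 of the 86 members. Without colonic iHET replicate 1 the nuclear median was 0.06 without colonic iHET replicate 3 it was 0.50 and without colonic iKO replicate 3 it was 0.14. The mitochondrially encoded median was 0.17 without colonic iHET replicate 1 and 0.61 without colonic iHET replicate 3. Ndufb6 had the lowest p (difference of log2 fold changes 0.94, SE 0.34, interval 0.19 to 1.69, FDR = 1.000). The intervals of Atp5mpl (0.70, -0.24 to 1.64), Sdhd (0.35, -0.17 to 0.87), Cox7a2l (0.49, -0.28 to 1.26), Uqcrh (0.47, -0.42 to 1.36), mt-Nd2 (0.38, -0.28 to 1.05) and mt-Nd4 (0.43, -0.42 to 1.27) all included 0.

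Genes that build, feed or control the respiratory chain were counted in the same fits. In colonic Tregs, estimates (iKO over iHET) were positive for 39 of 48 tested assembly factors, 12 of 13 genes of the tricarboxylic acid cycle, 15 of 18 carriers of electrons, ADP and phosphate, 67 of 76 mitochondrial and 80 of 92 cytosolic ribosomal protein genes, and 7 of 14 regulators of mitochondrial biogenesis. The medians were 0.09, 0.14, 0.09, 0.15, 0.33 and 0.01, and none of these genes was called, where 50.8% of all genes were positive. Colonic iHET replicate 1 had the lowest sum of the 6 colonic libraries for each of these lists but the assembly factors, which were lowest in iHET replicate 2. In CD25- PP Tregs positive estimates were fewer, at 21 of 48, 4 of 13, 9 of 18, 22 of 76, 32 of 90 and 8 of 15, against 49.6% of all genes, with none called. In PP Tregs they numbered 28 of 48, 7 of 13, 7 of 18, 43 of 76, 64 of 88 and 7 of 14, against 50.7% of all genes, and 1 gene, Mrps6 of the mitochondrial ribosome, was called, as lower in KO. Between organs, 48 assembly factors, 13 genes of the tricarboxylic acid cycle, 18 carriers, 76 mitochondrial and 93 cytosolic ribosomal protein genes and 15 regulators were tested, of which 5 genes were called in iHET and 4 in iKO mice, where 6.45% and 4.07% of all genes were. Positive estimates (colonic over CD25- PP) numbered 11, 8, 13, 24, 44 and 5 in iHET mice, against 49.1% of all genes. In iKO mice they numbered 22, 11, 14, 57, 79 and 6, against 51.2%. Tmem126b, an assembly factor of complex I, was called as lower in colonic Tregs in both iHET and iKO mice. In iHET mice Cox17, a copper chaperone of complex IV, and Mrpl1 of the mitochondrial ribosome were called lower and Gabpb1, a subunit of NRF2, higher, and in iKO mice Acad9, an assembly factor of complex I, was called lower and the ribosomal protein genes Mrps30 and Rpl3 higher. The symbol pattern of cytosolic ribosomal proteins also took in Rps6ka5, a kinase, which was called higher in iHET mice.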

How the data were processed

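Per the labels and the methods of the study, the authors trimmed reads with Trim Galore, aligned them to mm10 with STAR, allowing a single location per read, and assigned them with featureCounts without regard to strand; of paired reads only the forward read was used. The deposited values are whole-number counts per gene, without normalization. Symbols and exons were taken from GENCODE M21, whereas the study used a later release; 55394 of 55487 gene IDs of the inducible line and 53706 of 53801 of the Foxp3-YFP-cre line matched. A second gene ID with the symbol Atp5o, listed only in the former table, was not used. The members and lists were chosen with earlier results of these data known.

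RNA was amplified with a low-input kit. Total counts ranged from 26274861 to 35508709 per library. Nothing in the labels says whether same-group libraries came from separate animals, although the methods speak of animals, and p-values measure the spread between these libraries. Replicates of a group had unequal counts in 99.3% to 99.7% of genes with over 50 counts in the pair, so that none was a copy of another. Such a check cannot tell separate animals from repeats of the same RNA. The tools were edgeR 4.0.16 and DESeq2 1.42.0 under R 4.3.3, with limma 3.58.1 loaded, and Python 3.11.15 for levels and plots. Genes were kept if they reached 1 CPM in as many libraries as the smaller group has, scaled with TMM factors (trimmed mean of M-values) and tested over all genes with edgeR's quasi-likelihood test (prior count 1, Benjamini-Hochberg FDR under 0.05). Each genotype comparison was fitted on its own libraries, the colonic one with the replicate number as a term. The study used the cage, and that the number marks the cage is inferred, since the labels name none. The 10 inducible libraries were fitted together for organ and interaction. TMM factors enter the CPM of single genes but not their sums. TPM used the union of exons. The filter kept 83 members in PP, 85 in CD25- PP and 84 in colonic Tregs and 86 in the joint fit, and 12 were kept in none (Ndufa4l2, Cox4i2, Cox6a2, Cox7b2, Cox8b, Cox8c, mt-Atp6, mt-Atp8, mt-Co2, mt-Co3, mt-Nd3 and mt-Nd4l).

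Genes were named by a rule: those called, or, with fewer than 6 called, the gene of lowest p in each complex, the mitochondrially encoded gene with the largest estimate, the highest and lowest TPM of each complex, and sets of paralogs. Ndufa3, Ndufa8, Ndufb4, Ndufs5, Ndufv1, Sdhb, Uqcrfs1, and Atp5b and Atp5mpl where they were not of lowest p, were named after their values were seen. Deviations from group means of same-numbered libraries of the 2 genotypes had r = 0.145 in PP, 0.0852 in CD25- PP and 0.11, 0.32 and -0.0556 in colonic Tregs. Colonic pairs of unlike number had r between -0.314 and 0.174. With 2 libraries a group the deviations mirror each other, so that r cannot show whether libraries of PP or CD25- PP Tregs are paired. Alternatives were other normalizations, library sizes without mitochondrially encoded genes, no filter or at least 10 counts in every library, DESeq2, the tests of the study, a prior count of 0.125, the block added or left out, a joint fit of 10 libraries, and each replicate left out. The fits were tested on simulated data. The full sort gate of PP Tregs is not reported here.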

Additional observations from a re-analysis of the deposited data

Results flagged for a closer look

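Summed CPM of the nuclear complexes were compared in same-numbered iKO and iHET libraries of the inducible line, and all pairs of colonic Tregs lay on one side and all pairs of CD25- PP Tregs on the other. For all nuclear members the iKO library held on average 16.3% more than the iHET library in colonic Tregs and -6.12% in CD25- PP Tregs, a difference of 22.4 percentage points. The difference was 30 percentage points for complex I (22.1% against -7.92%), 14.3 for complex II (10.7% against -3.64%), 19.5 for complex III (12.1% against -7.46%), 31.7 for complex IV (24.1% against -7.57%) and 19.7 for complex V (15% against -4.76%). These differences between sums were not tested, and in the interaction test per gene 0 of 86 members were called. After TMM scaling the directions no longer held in every pair for complexes I, II and IV, since replicate 3 of colonic Tregs gave -2.94% for complex I and -3.36% for complex IV, and replicate 2 of CD25- PP Tregs gave 1.03% for complex II and 2.00% for complex IV. For replicate 1, whose iHET library was lowest in 69 of 77 nuclear members, the unscaled difference was 50.3% for complex I, against 14.5% and 1.46% for replicates 2 and 3.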

How the results depend on the processing

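Counts of called members were the same in 81 alternative fits and other in 8. Medians moved by less than 1 SD of the library medians in 616 cases and by more in 7. For nuclear members this SD was 0.44 in colonic Tregs and 0.47 between organs in iHET mice, against medians of 0.22 and 0.03. Between organs in iHET mice, medians from -0.26 to 0.23 with 1 library left out thus counted as less than 1 SD. The count does not show that directions held. In PP Tregs 1 member, mt-Co1, was called by DESeq2 and 1, again mt-Co1, with the replicate block (FDR 0.0439). In iHET mice between organs 2 members (mt-Nd4 and mt-Cytb) were called without a filter on low counts and 2, the same genes, with the replicate block, and between 0 and 2 with 1 library left out (Sdhb and Uqcrfs1 without colonic iHET replicate 1, Ndufa3 without colonic iHET replicate 3). Of all genes, 900 were called with that block, 1700 without colonic iHET replicate 1 and 883 without colonic iHET replicate 3. In iKO mice 3 were called without a filter (Sdhd, Cox5a and Uqcrfs1) and 3 by DESeq2 (Sdhd, Atp5b and Atp5s). The cause was not tested. The replicate block changed no other call of a member, but the nuclear median between organs was -0.20 with it in iHET and 0.15 in iKO mice. Same-numbered libraries of the inducible line share their sex per the labels, and whether they share a cage is inferred. Their deviations correlated over 0.1 in some pairs and not in others, and 1 of 3 colonic pairs had r = -0.0556. A colonic pair of unlike numbers had r = 0.174. The nuclear median of CD25- PP Tregs ranged from -0.14 to -0.031 with 1 library left out (-0.031 without iHET replicate 1). That of Sdhd in PP Tregs ranged from -0.17 to 0.013, turning direction without KO replicate 2. With TMM-scaled CPM, mean sums of CD25- PP Tregs were 4394 CPM for mitochondrially encoded genes in iHET, 6231 for nuclear members in iHET and 5977 in iKO, and over totals without mitochondrially encoded genes 6267 in iKO. With the longest transcript as length, Ndufa2 was at 193 TPM and no longer highest in complex I, as Ndufa7 was at 222. Atp5a1 was then at 784 and mt-Cytb at 2516 TPM. With 2 or 3 libraries a group, intervals lay within 1.5-fold for only 26 of 84 members of colonic Tregs. A 1.5-fold difference was thus not excluded for most of them. Over all genes of PP Tregs, 409 were called, but 696 by DESeq2, 691 by the exact test, 1015 with the block, 1305 without a filter and 54 to 313 with 1 library left out. Between organs DESeq2 called 2504 genes in iHET (against 1201) and 2233 in iKO mice (against 758), and without a filter 2848 and 2348 were called. Without a filter 232 genes were called in CD25- PP Tregs, 24 in colonic Tregs and 282 for the interaction. Fits without colonic iHET replicate 1 or 3 and without the replicate term were added after the data were seen.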
